A study of Mus musculus with 12 samples.

Results

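Il10-expressing macrophages were defined in CD11c-selected cells of mouse breast tumors by their unique molecular identifiers (UMIs), each of which marks a single captured mRNA molecule. A cell was a member when it had at least 200 detected genes, at least 1 UMI each of *Il10*, *C1qa*, and *Csf1r*, no UMI of *Lyve1*, *Cd209f*, *Cd209g*, or *Mki67*, and fewer than 2 UMIs of *Gpnmb*. The rule was met by 994 of the 11639 cells (8.54%). The same gate without the *Il10* condition held 4728 cells, of which the members were 21.0% (95% CI 19.9% to 22.2%), and the 3734 gated cells without an *Il10* UMI served for comparison. *Il10* is thus what chose the cells, and its level in them is a description and not a result.

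The tumors came from MMTV-PyMT mice, in which the polyoma middle T oncogene is driven in the mammary gland and breast cancer develops spontaneously. The CD11c+ samples were 3 from wild-type mice and 3 from PAR2 G37I mutant mice, whose protease-activated receptor 2 does not respond to coagulation factor Xa, with no additional treatment. Late-stage tumors were digested, CD11c+ cells were taken with beads, frozen, and thawed, and the cells were run on the 10x Genomics platform. A second matrix held CD4/CD8-selected cells from mid-size tumors, again with 3 wild-type and 3 PAR2 G37I mutant samples. Since macrophages and DCs both carry CD11c, macrophages low in it could have been missed.

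Interleukin-10 is a secreted cytokine that macrophages make after Toll-like receptor signals and on uptake of dying cells. It acts through the receptor chains IL-10RA and IL-10RB, the kinases JAK1 and TYK2, and the transcription factor STAT3, and it lowers the output of inflammatory cytokines and antigen presentation. In tumors it is known as a product of macrophages that restrains DC and T cell responses.

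The CD11c-selected matrix held 123642015 UMIs, with a median of 7943 UMIs per cell, and pooled the 6 samples without naming the sample of any cell. It was therefore treated as 1 sample. Wild-type and mutant cells were not compared, values carry no replicate error, and no test was made. The barcodes ran through the alphabet 6 times, and these 6 barcode runs, of 13314063 to 24245504 UMIs, were not linked to samples or genotypes. They are used below only to show how values varied within the matrix. Barcodes that occurred in 2 or more runs numbered 76, and 5 members carried such a barcode. Doublets were not removed. Intervals (95% CI) are exact and cover counting error only.

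*Il10* (GRCm38 chromosome 1, 131019845 to 131024974, plus strand) gave 12023 UMIs in the whole matrix, of which 48.6% were in members. Macrophages with a UMI of *Lyve1*, *Cd209f*, or *Cd209g*, genes of tissue-resident macrophages, held another 23.9%. These cells, called *Lyve1*/*Cd209f* macrophages here, carried *Il10* in 61.9% of 535 cells (CI 57.6% to 66.0%). *Gpnmb* macrophages, with at least 2 UMIs of that gene of lipid-laden macrophages, carried it in 10.1% of 405 cells (CI 7.36% to 13.5%) with median depths of 18318 UMIs in these and 8076 UMIs in gated cells. In epithelial cells, which should lack *Il10*, the share was 1.99% of 301 cells (CI 0.735% to 4.29%, median 6083 UMIs). The share of the gated macrophages was above that background. In *Flt3* cells without *C1qa*, which are not taken as a background, it was 1.77% of 792 cells (CI 0.970% to 2.95%, median 11794 UMIs).

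The gated macrophages remained above *Gpnmb* macrophages, *Flt3* cells, and epithelial cells at equal depth. After thinning each cell to 5000 UMIs and leaving out shallower cells, *Il10* was found in 18.2% of 3212 gated cells, 50.9% of *Lyve1*/*Cd209f* macrophages, 4.70% of *Gpnmb* macrophages, 0.724% of *Flt3* cells, and 0.637% of epithelial cells. As a level, *Il10* stood at 474 UMIs per 1000000 UMIs (CPM) in *Lyve1*/*Cd209f* macrophages, 128 in all gated macrophages, 25.7 in *Gpnmb* macrophages, and 1.93 in epithelial cells. The counting intervals of these levels did not overlap.

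**Figure D1:**
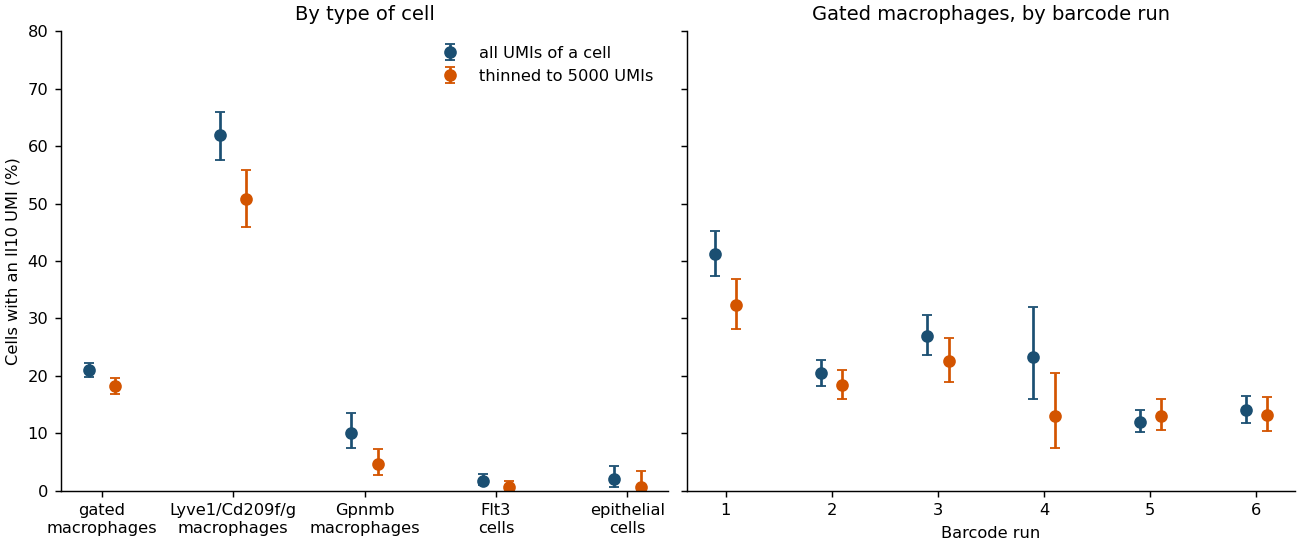
Percent of cells with an *Il10* UMI (y axis) in CD11c-selected cells, with exact 95% counting intervals, using all UMIs of a cell (blue) and after thinning each cell to 5000 UMIs (orange). The left panel gives types of cells and the right panel gives gated macrophages in each of the 6 barcode runs, where run 1 stood at 41.3% and run 5 at 12.0%.

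The share of gated macrophages with *Il10* varied among barcode runs. It was 41.3%, 20.4%, 27.0%, 23.3%, 12.0%, and 14.1% in runs 1 to 6, at median depths of 8880, 7825, 9495, 28941, 7016.5, and 7558 UMIs per cell. Thinned to 5000 UMIs, the shares were 32.4%, 18.3%, 22.5%, 12.9%, 13.1%, and 13.2%. Run 1 remained the highest, with an interval (28.2% to 36.9%) above those of the other runs. The high unthinned share of run 4 went with its depth, and run 4 gave only 116 gated cells. *Lyve1*/*Cd209f* macrophages ranged from 52.9% to 70.7%, and from 41.8% to 60.4% when thinned.

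Members differed widely in how much *Il10* they carried. A single UMI was found in 354 members (35.6%), 2 UMIs in 140, and 3 or more in 500, with a median of 3 and a highest count of 67. The 192 members with 10 or more UMIs (19.3%) held 62.3% of the *Il10* UMIs of all members. Just inside the rule are thus the 354 cells with 1 UMI, and just outside it the 3734 cells with none. A cell with *Il10* transcripts can show no UMI at these depths: thinned to 5000 UMIs, *Il10* was still seen in 77.3% of the members.

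To compare cells of like depth, each member was matched to a cell of the same gate and barcode run without *Il10* and within 10% of its total UMIs. This paired 987 members with 987 cells, at medians of 8849 and 8733 UMIs, 2539 and 2536 genes, and 5.02% and 4.76% mitochondrial UMIs. Both groups were gated on *C1qa* and *Csf1r*, so the macrophage markers in them are a description. *C1qb*, a complement subunit, was detected in 97.7% of members and 95.7% of matched cells, and *Adgre1*, which encodes F4/80, in 88.7% and 77.2%. In 360 T cells and epithelial cells, at a median of 5501.5 UMIs, these shares were 20.3% and 2.22%. Those cells were defined as having no *C1qa* UMI, so the gates in part set this contrast. Of the 10 macrophage markers compared, none differed by 1.5-fold, and *Adgre1* (1.41-fold, CI 1.35 to 1.48) and *Cd14*, the LPS coreceptor (1.39-fold, CI 1.37 to 1.42), differed most.

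Markers of other cells were low in the members. Summed over each list, T cell markers stood at 14.2 CPM in members and 15.6 in matched cells, NK cell markers at 1.00 and 1.61, endothelial markers at 23.5 and 24.5, neutrophil markers at 44.3 and 36.5, and fibroblast markers at 97.0 and 97.0. B and plasma cell markers stood at 158 and 124.6 CPM and tumor epithelial markers at 241 and 267. *Csf3r* and *Ighm* gave most of the neutrophil and B cell sums. The epithelial sum varied over the runs from 41.6 to 689 CPM in members and from 63.9 to 694 in matched cells, and of its 6 genes *Krt19* was higher and *Epcam* lower in members. A marker was at 0 UMIs in the members in the T cell, B cell, and NK cell lists (1 gene each) and in the migratory DC list (2 genes). The exceptions were DC markers: the cDC2 list summed to 29.8 CPM in members against 129 in matched cells, and the migratory DC list to 29.7 against 63.6.

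Genes with at least 10 CPM over both groups were compared, without the 8 genes of the gate, and a gene counts as higher or lower here at a ratio of 1.5-fold. Of 6989 genes, 251 (3.59%) were higher in members and 165 (2.36%) were lower. The median log2 ratio of all genes was -0.07. In each of the 6 runs taken alone, 598 genes (8.56%) stood higher and 977 (14.0%) lower. The 15 genes of highest ratio among those higher in every run were *Ccl8*, *Ccl7*, *Hbegf*, *Cxcl1*, *Cd163*, *Rcn3*, *Cbr2*, *Ednrb*, *Folr2*, *Ccl24*, *Ccl2*, *Gdf15*, *Rcan1*, *F13a1*, and *Dusp7*, from 5.81-fold to 3.47-fold.

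**Figure D2:**
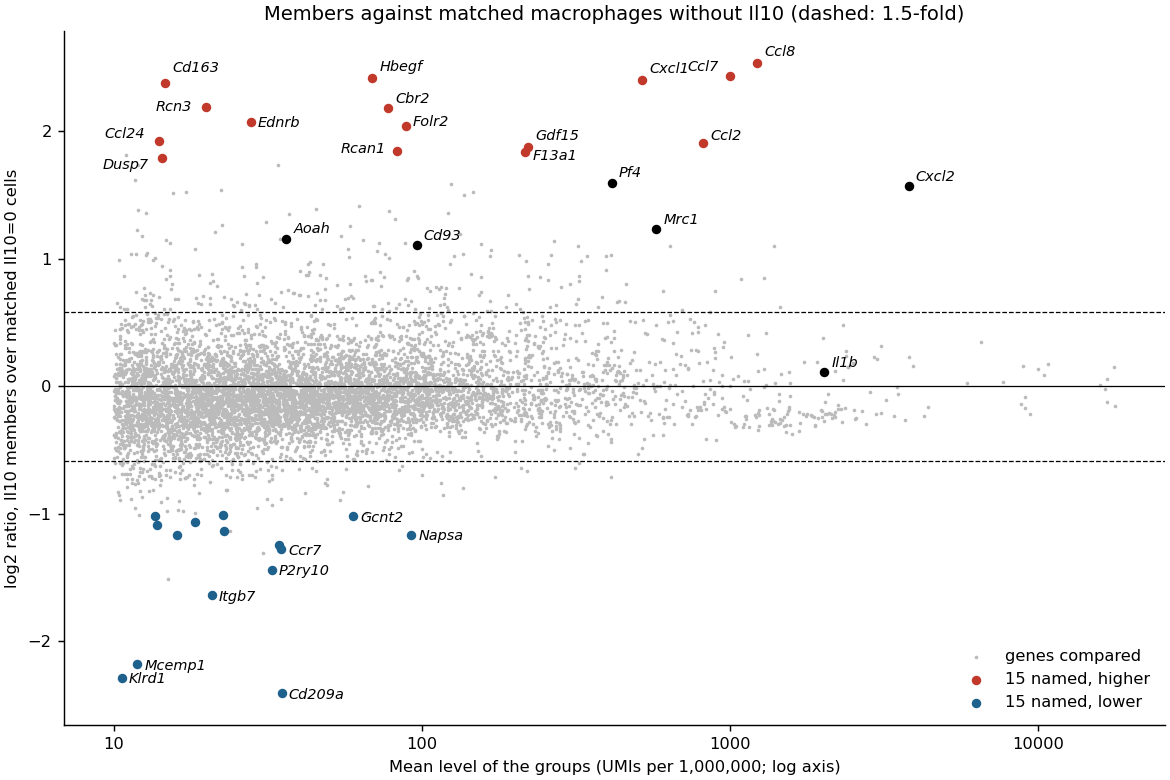
Each point is a gene, with its mean level over members and matched cells on the x axis (UMIs per 1000000, log axis) and its log2 ratio on the y axis. The 15 named genes on each side are in red and blue, other genes of the text in black, and dashed lines mark 1.5-fold. *Cxcl2* joined a high level with a log2 ratio of 1.57, whereas *Il1b* stood near 0.

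Chemokine ligands, the secreted proteins that draw leukocytes into tissue, led the difference. Of 19 ligands compared, 11 were higher in members (*Ccl2*, *Ccl3*, *Ccl4*, *Ccl7*, *Ccl8*, *Ccl12*, *Ccl24*, *Cxcl1*, *Cxcl2*, *Cxcl3*, and *Pf4*) and 3 were lower (*Cxcl9*, *Cxcl13*, and *Cxcl14*). Their median log2 ratio was 1.02. Summed, the 21 ligands of the list made up 17849 CPM in members and 7059 in matched cells. The members thus stood high in neutrophil-drawing CXC ligands and monocyte-drawing CC ligands, and low in *Cxcl9*, an interferon-gamma-induced ligand that draws T cells (17.5 against 43.4 CPM, ratio 0.404, CI 0.337 to 0.483), although *Cxcl9* was lower in only 4 of 6 runs.

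The neutrophil chemokines *Cxcl1*, *Cxcl2*, and *Cxcl3* were all higher. *Cxcl1* ranged from 629 to 1042 CPM over the runs in members (median 845) and from 55.6 to 282 in matched cells (median 123), a ratio of 5.27 (CI 5.003 to 5.56) over all runs. *Cxcl2* was the most abundant chemokine, from 4704 to 6602 CPM in members (median 5935) and from 911 to 2663 in matched cells (median 1888), a ratio of 2.97 (CI 2.92 to 3.02). The groups did not overlap between runs for either gene. Of all genes compared, 8.56% were higher in every run, and the share of all genes without overlap is not given here. *Cxcl3*, much lower in level, was at 90.6 CPM against 34.0, a ratio of 2.66 (CI 2.35 to 3.03), and its run values overlapped. *Cxcl2* was detected in 89.4% of members and 65.5% of matched cells and *Cxcl1* in 47.3% and 20.5%. Each was detected in 35.6% of the 360 T cells and epithelial cells, so these transcripts were not particular to macrophages.

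*Cxcl1* (chromosome 5, 90891241 to 90893115, plus strand), *Cxcl2* (90903871 to 90905938, plus strand), and *Cxcl3* (90786103 to 90789600, plus strand) lie near each other on GRCm38, and *Pf4* (90772435 to 90773383, plus strand) lies in the same cluster. The bases from 120 to 31 before the RefSeq start of each gene (GRCm38.p6, plus strand) are shown because all hold the same 10-base match to the NF-kB consensus, GGGAATTTCC, which is in capitals.
Cxcl1, chr5:90891125-90891214: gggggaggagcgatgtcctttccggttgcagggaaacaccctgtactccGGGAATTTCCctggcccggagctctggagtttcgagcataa
Cxcl2, chr5:90903779-90903868: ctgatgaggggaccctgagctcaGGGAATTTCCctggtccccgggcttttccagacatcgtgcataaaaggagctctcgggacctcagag
Cxcl3, chr5:90785981-90786070: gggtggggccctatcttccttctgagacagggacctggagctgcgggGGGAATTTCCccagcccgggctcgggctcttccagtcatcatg
The match begins 71, 97, and 73 bases before the start of *Cxcl1*, *Cxcl2*, and *Cxcl3*. Its letters were taken from the sequence upstream of *Cxcl1*, so *Cxcl1* holds them by construction. NF-kB is a transcription factor family activated by Toll-like receptors and inflammatory cytokines. Searched on both strands in windows from 250 bases before to 50 after the start, these letters were in 29 of 32851 RefSeq windows (0.0883%) and in windows of 9 of the 5588 genes compared that have a window (0.161%). The looser NF-kB consensus was in windows of 12.5% of the genes compared, of 15.7% of 191 genes that were higher, and of 12.6% of 135 that were lower. Of 13 chemokine ligands compared that have a window, 5 held this looser consensus. They were *Cxcl1*, *Cxcl2*, *Cxcl3*, and also *Ccl9* (1.42-fold) and *Cxcl10* (1.37-fold), which did not pass 1.5-fold. The consensus was not found in the windows of *Ccl8*, *Ccl3*, *Ccl12*, or *Pf4*, which says only that these windows lack it.

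The monocyte chemokines *Ccl2*, *Ccl7*, and *Ccl8* form a cluster with *Ccl12* on chromosome 11 (82035571 to 82116799), and all 4 were higher. *Ccl8* ranged over runs from 1240.3 to 2717 CPM in members (median 1928) and from 78.2 to 681 in matched cells (median 249). *Ccl7* ranged from 918 to 2304 CPM (median 1486) against 41.8 to 535 (median 229). *Ccl2* ranged from 723 to 1681 CPM (median 1188) against 172 to 472 (median 302). All 3 genes were higher in every run, as 8.56% of all genes compared were, and their run values did not overlap between groups. The ratios over all runs were 5.81 (CI 5.60 to 6.02), 5.39 (CI 5.19 to 5.60), and 3.75 (CI 3.61 to 3.90). *Ccl8* was the most unevenly held: it was detected in 44.2% of members, and the 10 members with most *Ccl8* gave 29.7% of its UMIs. Without the 10 highest cells of each group the ratio was 7.09. For *Ccl24*, an eosinophil chemokine, the 10 highest members gave 75.6% of the UMIs, and its ratio of 3.79 was 2.23 without run 2 and 1.14 in cells with no UMI of *Cd209a*, *Ccr7*, *Flt3*, or *Klrd1*.

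**Figure D3:**
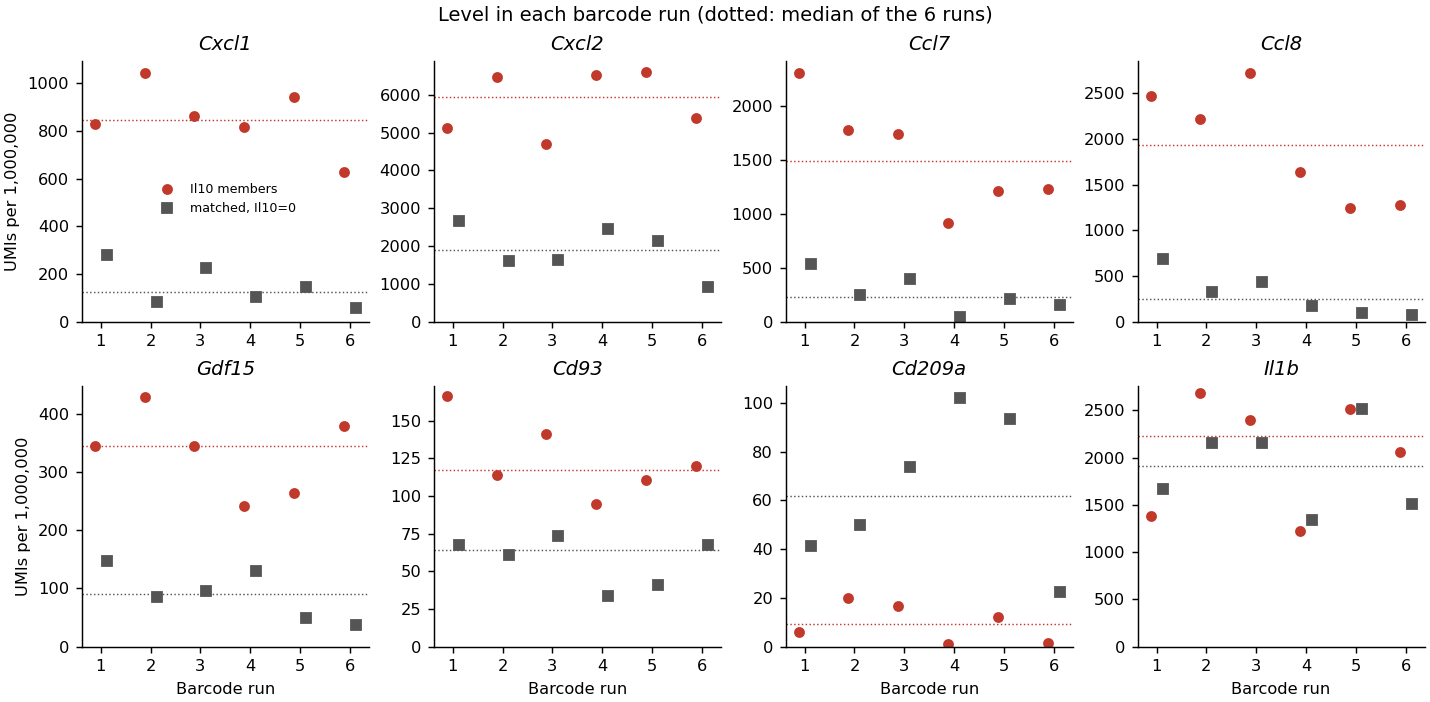
Level in UMIs per 1000000 (y axes start at 0) of 8 genes in each barcode run (x axis), in members (red circles) and matched cells without *Il10* (gray squares), with the median of the 6 runs as a dotted line. Members and matched cells were apart in *Cxcl1*, *Cxcl2*, *Ccl7*, *Ccl8*, *Gdf15*, *Cd93*, and, on the other side, *Cd209a*, and mixed in *Il1b*.

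The 3 genes given with *Il10* as markers of these macrophages, which had been picked from these same cells, were higher in members in every run. *Gdf15* (chromosome 8, 70629393 to 70632456, minus strand), a stress-induced cytokine of the TGF-beta superfamily, ranged from 241 to 428 CPM in members (median 344) and from 37.1 to 147 in matched cells (median 90.5), a ratio of 3.68 (CI 3.42 to 3.96). *Cd93* (chromosome 2, 148436640 to 148443563, minus strand), a surface C-type lectin-like receptor, was at 131 against 61.0 CPM, a ratio of 2.15 (CI 1.95 to 2.37). *Aoah* (chromosome 13, 20794113 to 21036617, plus strand), the lipase that removes acyl chains from LPS, was at 50.1 against 22.4 CPM, a ratio of 2.23 (CI 1.90 to 2.62). These genes were not shared by all members. *Gdf15* was detected in 41.7% of them, *Cd93* in 47.4%, and *Aoah* in 31.8%, against 21.8%, 28.3%, and 16.6% of matched cells and 8.61%, 1.67%, and 1.94% of the T cells and epithelial cells.

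Among 16 cytokine genes of myeloid cells compared, 7 were higher and 1 (*Il16*) was lower. *Tnf*, the inflammatory cytokine, was at 352 against 172 CPM (ratio 2.05, CI 1.93 to 2.17), and its run values did not overlap. *Il1a* stood at a ratio of 2.48 (CI 2.23 to 2.77), *Il1rn*, the secreted antagonist of the IL-1 receptor, at 2.14 (CI 2.03 to 2.26), *Tnfsf9*, the ligand of 4-1BB on T cells, at 2.40 (CI 2.11 to 2.73), *Igf1* at 1.86, and *Osm* at 1.70. *Il1b* differed little, with 2097 against 1942 CPM (ratio 1.08, CI 1.06 to 1.10), and was higher in 4 of 6 runs. *Il6* was at 24.2 against 19.3 CPM, and *Vegfa* at 187 against 210. The members therefore held more of *Il1a*, *Tnf*, and the IL-1 antagonist together, but about the same *Il1b*.

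Genes of the IL-10 receptor and its pathway mostly lay within 1.5-fold. Of 15 IL-10 receptor and target genes compared, 2 were higher, *Il1rn* and *Cd163*, and none was lower. *Il10ra* was at 100.1 against 103 CPM (ratio 0.975, CI 0.893 to 1.07) and *Il10rb* at 172 against 142 (1.21, CI 1.13 to 1.30). *Jak1* stood at 1.30, *Tyk2* at 0.906, and *Stat3* at 1.15. Among genes that STAT3 is known to induce, *Socs3*, a feedback inhibitor of cytokine receptors, was at 1.42 (CI 1.36 to 1.48), *Etv3* at 1.43, *Bcl3* at 1.37, *Il4ra* at 1.21, *Sbno2* at 1.17, *Zfp36* at 1.19, *Socs1* at 1.41, and *Nfil3* at 0.915. *Socs3*, *Etv3*, *Bcl3*, *Il4ra*, *Stat3*, and *Jak1* were higher in 6 of 6 runs, and 8 of the 15 genes were, though most of them by less than 1.5-fold. Of all genes compared, 8.56% were higher in 6 of 6 runs.

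Of 20 transcription factors and kinases upstream of *Il10* that were compared, only *Maf* passed 1.5-fold. *Maf*, a transcription factor known to bind the *Il10* locus, was at 163 against 83.6 CPM, a ratio of 1.95 (CI 1.79 to 2.12), and was higher in every run although run values overlapped. *Nfkb1*, which encodes p50, stood at 1.44 (CI 1.39 to 1.49), *Map3k8*, the kinase TPL2, at 1.27, *Irf4* at 1.18, *Nfkb2* at 1.16, *Creb1* at 1.15, *Rela* at 1.08, *Atf3* at 1.06, *Dusp1* at 1.04, *Hif1a* at 1.03, and *Prdm1*, which encodes BLIMP-1, at 1.03. On the other side of 1 were *Sp1* at 0.982, *Atf1* at 0.938, *Mapk14*, the kinase p38 alpha, at 0.913, *Crem* at 0.911, *Ahr* at 0.903, and *Mapk3* at 0.785. *Nfkb1*, *Map3k8*, and *Maf* were higher in 6 of 6 runs and *Crem* was lower in 6 of 6, as were 8.56% and 14.0% of all genes compared.

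Genes of LPS sensing and of its feedback followed the same side. Of 13 compared, 4 were higher and none was lower: *Aoah*, *Irak3*, an inhibitor of Toll-like receptor signals (1.55-fold), *Tnfaip3*, the NF-kB inhibitor A20 (1.74-fold), and *Nfkbia*, which encodes IkB alpha (1.80-fold, CI 1.75 to 1.85). *Tlr2* stood at 1.42 and *Tlr4*, with only 10.7 against 13.7 CPM, at 0.783. Of 10 prostaglandin, adenosine, and cAMP genes, *Ptgs2*, which encodes COX-2, was higher (1.82-fold, CI 1.71 to 1.93). Of 18 immediate early genes, *Ier3* (2.15-fold), *Maff* (2.10-fold), and *Egr2* (1.57-fold) were higher and none was lower. The median log2 ratio of this list was 0.17, and 5 of its genes stood higher and none lower in all 6 runs. For all genes compared, these shares were 8.56% and 14.0%. No heat shock gene was higher and *Hsph1* was lower. None of 18 interferon-induced genes passed 1.5-fold on either side.

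Scavenger and uptake receptors, with which macrophages clear dying cells and ligands, were the other group. Of 13 compared, 6 were higher and none was lower. *Mrc1*, the mannose receptor, was at 807 against 343 CPM (ratio 2.35, CI 2.26 to 2.45), *Gas6*, the bridge from dying cells to TAM receptors, at 186 against 62.0 (3.00, CI 2.74 to 3.29), and *Cd36* at 141 against 81.8 (1.72). *Folr2*, a folate receptor, was at 142 against 34.6 CPM (4.11, CI 3.66 to 4.64), and *Cd163*, the hemoglobin scavenger receptor, at 24.6 against 4.73 (5.21, CI 3.80 to 7.27). *Stab1* (1.18), *Lrp1* (1.08), and *Axl* (0.907) lay near 1.

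Complement and coagulation genes were divided. Among the complement genes, *C4b* (2.84-fold) and the receptors *C3ar1* (1.77-fold) and *C5ar1* (1.72-fold) were higher. *Itgax*, which encodes CD11c and so the protein used to select the cells, was lower, at 169 against 268 CPM (ratio 0.631, CI 0.593 to 0.671). Of 10 coagulation genes compared, *F13a1*, the transglutaminase subunit that crosslinks fibrin, was higher (338 against 94.8 CPM, 3.57-fold, CI 3.32 to 3.84), and so were *Plau*, *Thbd*, and *Procr* (1.80-, 1.61-, and 1.57-fold). *F10*, which encodes coagulation factor X, differed little at 41.2 against 40.0 CPM (ratio 1.03, CI 0.895 to 1.19).

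The genes lower in members included several known from DCs. Those of lowest ratio among genes lower in every run were *Cd209a*, *Klrd1*, *Mcemp1*, *Itgb7*, *P2ry10*, *Ccr7*, *Ramp3*, *Napsa*, *Cxxc5*, *Gpr171*, *Siglech*, *Bri3bp*, *Gcnt2*, *Ccdc102a*, and *H2-DMb2*, from 0.188 to 0.496. *Cd209a*, a C-type lectin of cDC2s, ranged from 1.30 to 19.8 CPM in members (median 9.12) and from 22.6 to 102 in matched cells (median 61.7), a ratio of 0.188 (CI 0.152 to 0.231). *Ccr7*, the receptor that leads DCs to lymph nodes, was at 20.4 against 49.5 CPM. Few cells held these transcripts: *Cd209a* was detected in 6.99% of matched cells and 4.36% of members, and the 10 highest matched cells gave 45.2% of its UMIs. For *Ccr7* that share was 60.8%. In cells with no UMI of *Cd209a*, *Ccr7*, *Flt3*, or *Klrd1*, a comparison chosen after seeing the data, *Mcemp1* was at 0.322, *Itgb7* at 0.448, *Ramp3* at 0.593, *Gpr171* at 0.620, and *H2-DMb2* at 0.659. Most of the other named genes moved less, and all of them remained lower by at least 1.5-fold.

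Antigen presentation genes stood slightly lower. Of 9 MHC class II genes compared, *H2-DMb2* and *H2-Oa* (ratio 0.509) were lower and none was higher. The abundant *H2-Ab1* was at 8718 against 10133 CPM (ratio 0.860, CI 0.853 to 0.868) and lower in 6 of 6 runs, and *Cd74* at 16047 against 17499 (0.917). The median log2 ratio of the list was -0.22, against -0.07 for all genes. Of 12 checkpoint and costimulatory genes, *Cd40* (2.11-fold, CI 1.86 to 2.39) and *Tnfsf9* were higher. *Cd80* (0.684), *Havcr2*, which encodes TIM-3 (0.680), *Cd274*, which encodes PD-L1 (1.15), and *Cd86* (1.08) did not pass 1.5-fold.

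Members were not uniform. *Folr2*, *Cd163*, and *Cbr2*, all among the named genes and all abundant in *Lyve1*/*Cd209f* macrophages, were used to look at this after their values had been seen. At least 1 UMI of the 3 genes was found in 43.0% of matched members (CI 39.8% to 46.1%), in 16.8% of the matched cells without *Il10* (CI 14.5% to 19.3%), and in 92.3% of *Lyve1*/*Cd209f* macrophages. When members with such a UMI were matched for depth to members without, 358 of each, *Ccl8* stood at 4799 against 279 CPM (17.2-fold, CI 16.1 to 18.4), *F13a1* at 706 against 75.5 (9.35-fold), *Pf4* at 1230 against 202 (6.07-fold), *Ccl7* at 3458 against 593 (5.83-fold), *Maf* at 302 against 73.5 (4.11-fold), and *Gdf15* at 563 against 204 (2.76-fold). The members without them had more *Il1b*, 3034 against 950 CPM (ratio 0.313, CI 0.301 to 0.325), more *Il1a* (161 against 71.8 CPM), and more *H2-Ab1* (10015 against 6118 CPM).

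Other genes differed by less than 1.5-fold between these kinds of members. *Cxcl2* was at 6489 CPM in members with and 5046 in members without the 3 genes (1.29-fold, CI 1.26 to 1.31), *Cxcl1* at 976 and 816 (1.20-fold, CI 1.14 to 1.26), *Cxcl3* at 99.7 and 89.4 (ratio 1.12, CI 0.955 to 1.30), *Tnf* at 356 and 380 (0.937, CI 0.867 to 1.01), and *Il10* itself at 720 and 543 (1.33-fold, CI 1.25 to 1.41). Among gated cells without any of the 3 genes, 567 members against 567 matched cells, 176 genes were higher and 194 lower. There *Ccl7* was at a ratio of 3.24, *Gdf15* at 2.94, *Ccl8* at 2.41, *Ccl2* at 2.40, and *Aoah* at 1.63, while *F13a1* was at 1.62, *Ccl24* at 1.28, *Rcn3* at 1.17, and *Ednrb*, an endothelin receptor, at 0.971. *Cxcl1* was at 5.41, close to its ratio over all members.

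**Figure D4:**
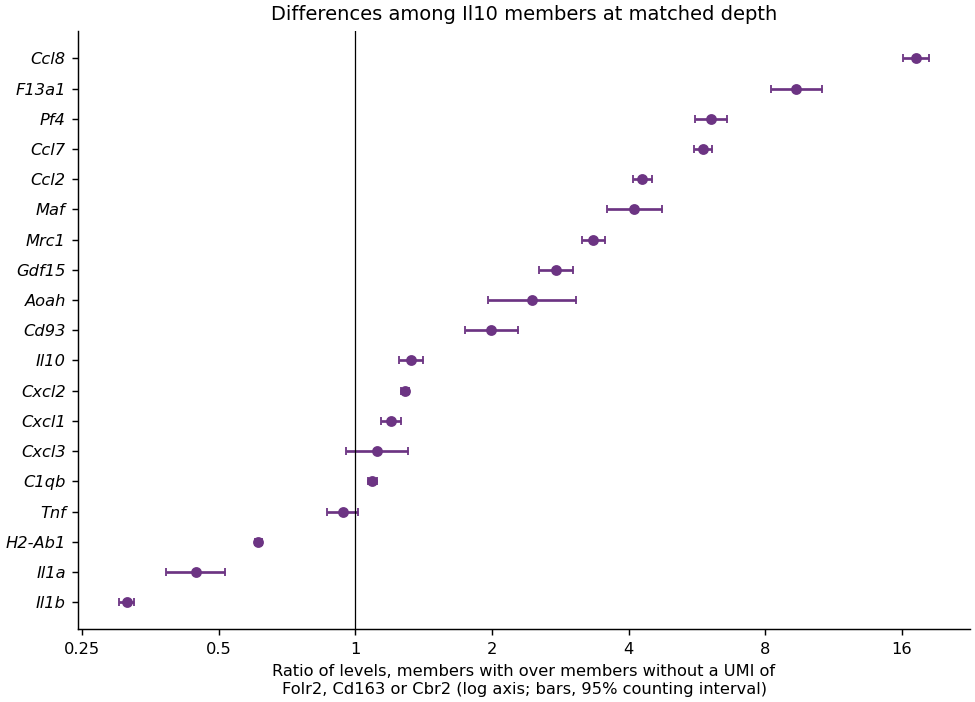
Ratio of the level in 358 members with a UMI of *Folr2*, *Cd163*, or *Cbr2* to that in 358 members without, matched for depth (x axis, log scale; bars, exact 95% counting intervals; vertical line at 1). *Ccl8*, *F13a1*, *Pf4*, and *Ccl7* stand to the right, *Il1b*, *Il1a*, and *H2-Ab1* to the left, and *Cxcl1*, *Cxcl2*, *Cxcl3*, and *Tnf* between 0.937 and 1.29.

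Members were also divided by their count of *Il10* UMIs, and each class was matched to cells without *Il10* anew. Steps were scored on the ratio to these matched cells, from 0 to 1, 2, and 3 or more *Il10* UMIs. Of the 6989 genes, 300 (4.29%) had a ratio that rose at each step, and 468 (6.70%) had a ratio that fell at each step. A rising ratio need not mean a rising level, since each class had its own matched cells. The classes were set by *Il10*, and the genes given here were chosen for following them, so their order over the classes describes that choice. By this measure of likeness to *Il10*, over 4 classes of cells, the leading genes were *Cxcl1*, *Cd163*, *Ednrb*, *Dusp7*, *Lrg1*, *F13a1*, *Ccl2*, *Cxcl2*, *Rgl1*, *Tnfsf9*, *Il1rn*, *Nxpe5*, *Pmp22*, *Sh3bp5*, and *Rffl*. *Cxcl1* was at 2.19 (CI 1.99 to 2.41), 3.64 (CI 3.16 to 4.21), and 8.44 (CI 7.83 to 9.11) times its matched level. *Cxcl2* was at 1.76, 2.60, and 3.95, *Il1rn* at 1.60, 1.77, and 3.15, and *Tnfsf9* at 1.10 (CI 0.845 to 1.42), 2.57, and 3.33. In the 192 members with 10 or more *Il10* UMIs, which are part of the class of 3 or more, *Cxcl1* was at 8.41, *Cxcl2* at 4.50, *Il1rn* at 3.98, and *Tnfsf9* at 5.85.

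The markers did not follow this order. *Gdf15* was at 2.80, 4.68, and 3.75, *Cd93* at 1.70, 2.98, and 2.32, and *Aoah* at 1.98, 2.96, and 2.28 with 1, 2, and 3 or more *Il10* UMIs, and for all 3 genes the intervals of the last 2 of these classes overlapped. *Ccl8* was at 3.86, 17.7, and 5.20, its highest value falling in the class with only 140 members. *Il1b* remained between 0.875 and 1.25 in all classes. Among genes whose ratio fell at each step, *Itgb7*, an integrin chain, was at 0.457, 0.344, and 0.225, *P2ry10* at 0.509, 0.479, and 0.243, and *Txnip*, an inhibitor of thioredoxin, at 0.906, 0.778, and 0.403. The level of *Itgb7* in these members was 13.2, 7.66, and 8.54 CPM.

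**Figure D5:**
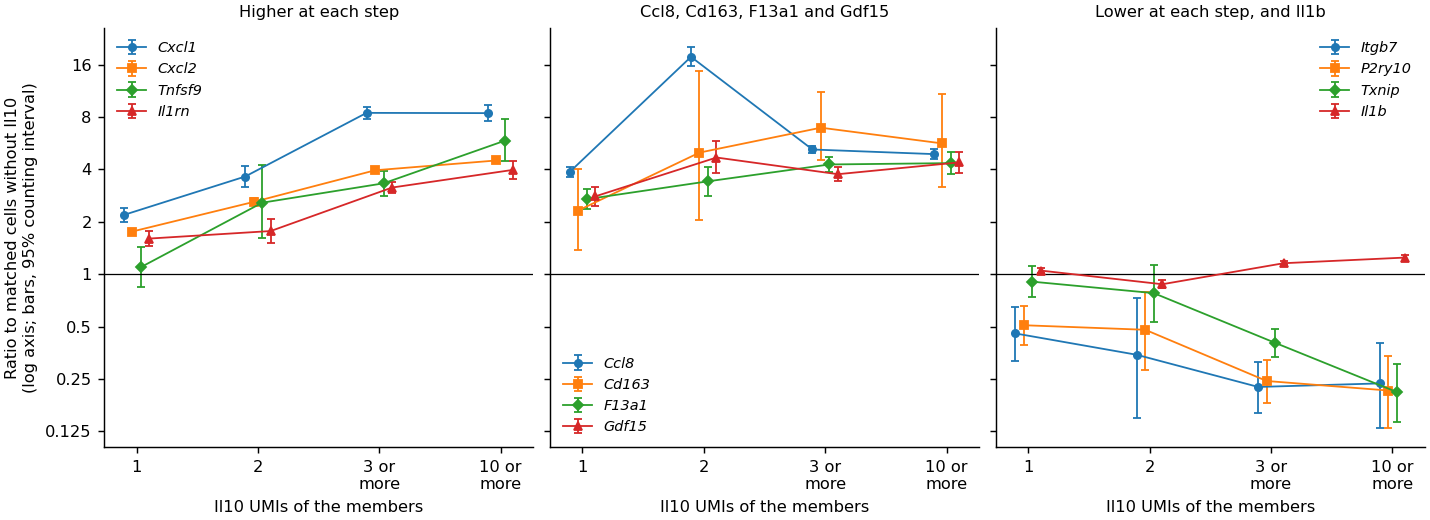
Ratio of the level in members to that in matched cells without *Il10* (y axis, log scale; bars, exact 95% counting intervals; line at 1) for members with 1, 2, 3 or more, and 10 or more *Il10* UMIs (x axis), the last class being part of the one before. *Cxcl1* went from 2.19 to 8.44 over the first 3 classes, *Gdf15* peaked at 2 UMIs, and *Il1b* remained near 1.

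The *Lyve1*/*Cd209f* macrophages, the other cells rich in *Il10* among those compared, had more of several genes that were high in members. In 486 members and 486 *Lyve1*/*Cd209f* macrophages matched for depth and run, 543 of 7055 genes (7.70%) were higher and 861 (12.2%) lower in members. *Ccl8* was at 2257 CPM in members and 13131 in the other cells (ratio 0.172, CI 0.168 to 0.175), *F13a1* at 375 and 1752 (0.214), *Folr2* at 154 and 890 (0.173), *Mrc1* at 830 and 2079 (0.399), *Maf* at 181 and 585 (0.309), *Gdf15* at 414 and 585 (0.707), and *Aoah* at 53.8 and 96.2 (0.559, CI 0.479 to 0.652). *Cd93* was higher in members (138 and 101 CPM, 1.37-fold, CI 1.22 to 1.55), as were *Cxcl1* (1.56-fold), *Il1a* (3.25-fold), and *Il1b*, at 1917 and 317 CPM (6.05-fold, CI 5.73 to 6.38). All 7 MHC class II genes compared were higher in members. The 5 epithelial and 4 fibroblast markers compared were higher as well, and the part of RNA from such cells was not tested.

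Against *Gpnmb* macrophages, in 241 pairs, 770 of 7136 genes (10.8%) were higher and 867 (12.1%) lower in members. Members had more *Retnla* (1358 and 11.8 CPM, 115-fold, CI 84.7 to 159), *Ccl8* (11.3-fold), *Mrc1* (7.76-fold), and *Gdf15* (2.98-fold), and all 8 MHC class II genes compared were higher. All 6 epithelial markers compared (median log2 ratio 2.64), the only fibroblast marker compared (5.27), and *Ccr7* (72 UMIs against 1) were higher as well, and the part of RNA from such cells was not tested. They had less *Spp1*, which encodes osteopontin (1069 and 20798 CPM, ratio 0.0514), *Arg1* (0.0190), *Trem2* (0.217), and *Cd93* (0.689, CI 0.600 to 0.790). *Cd93* was thus not highest in members among macrophages.

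The same gate was applied to the CD4/CD8-selected matrix, whose cells the rule had not used. It held 403 gated macrophages among 22806 cells, and 60 of them (14.9%, CI 11.6% to 18.7%) carried *Il10*, against 0.755% of 15622 T cells (medians of 11420 and 4665 UMIs). These are few cells that came past a T cell selection. In 60 members and 60 matched cells, 13 of the 15 genes named as higher were again higher. Among these, *Hbegf* (19 against 10 UMIs), *Rcn3* (12 against 10), and *Ccl24* (6 against 4) had intervals that included 1. The intervals of the others lay above 1, though *Cd163* had 23 UMIs against 1. Of the 15 named as lower, 8 were again lower, a share no higher than the 55.8% of all compared genes that were. *Ccr7*, counted among the 8, had 6 UMIs in each group. *Cd209a*, with 7 UMIs against 0, and *Gpr171* (3.42-fold, CI 1.43 to 9.40) were higher in members. Of 226 higher genes that could be compared in both matrices, 86.7% were again above 1, where 44.2% of all 6601 genes were. Of 131 lower genes, 76.3% were again below 1, where 55.8% of all were.

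The chemokines given here were again higher in members, but a few cells held many of their UMIs. The 5 highest matched cells gave 81.8% of the UMIs of *Ccl8*, 82.5% of *Ccl7*, 73.5% of *Ccl2*, 62.3% of *Cxcl1*, and 48.4% of *Cxcl2*. The 5 highest members gave 59.7%, 49.6%, 48.2%, 41.3%, and 33.1%. *Cxcl1* was at 1124 against 151 CPM (7.43-fold, CI 6.18 to 8.99), *Cxcl2* at 4021 against 1079 (3.73-fold), *Ccl2* at 771 against 250.2 (3.08-fold), *Ccl7* at 942 against 319 (2.95-fold), and *Ccl8* at 1443 against 958 (1.51-fold, CI 1.38 to 1.65). *Cd93* (1.88-fold, CI 1.39 to 2.56), *Aoah* (1.88-fold, CI 1.15 to 3.15), *Tnfsf9* (9.10-fold), *Ptgs2* (5.74-fold), and *Il1a* (2.10-fold) were also higher, whereas *Il1b* (1.12) and *Maf* (0.952, CI 0.719 to 1.26) were not. *Gdf15* went the other way, with 320 CPM in members and 547 in matched cells (ratio 0.586, CI 0.503 to 0.681). The 5 highest matched cells gave 87.4% of its UMIs there. *Csn3* (36.0 against 588 CPM) and *Epcam* (9.29 against 93.1 CPM), genes of mammary epithelial cells, were also higher in the matched cells. Without cells that carried markers of other types, in 40 pairs, *Gdf15* was at 0.385 (CI 0.320 to 0.461), and epithelial cells of that matrix had 27.4 CPM of *Gdf15*. The cause of the lower *Gdf15* ratio in this matrix was not tested.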

How the data were processed

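Transcripts of single cells were measured in 6 CD11c-selected and 6 CD4/CD8-selected tumor samples. The authors deposited UMI counts that were not normalized, in 1 matrix for each selection, made with Cell Ranger 3.0.2 on mm10 according to the submitters' processing notes. Columns of cells carried no sample name, so no column was assigned to a sample. Of the gene symbols, 98.0% matched GENCODE M21, the source of the gene positions on GRCm38.

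Cells with at least 200 genes were kept, which left out 341 and 295 barcodes. No clustering was used. Levels are UMIs summed over cells per 1000000 UMIs (CPM). Ratios have intervals conditional on the summed counts, UMI levels exact Poisson intervals, and shares exact Clopper-Pearson intervals. Matching was 1 to 1 on total UMIs, without replacement, within barcode runs. Shares were also computed after hypergeometric thinning to 5000 UMIs. The matching and ratios were tested on simulated data. Python 3.11.15, numpy 2.4.6, scipy 1.17.1, pandas 2.3.3, and matplotlib 3.10.9 were used.

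The genes named are the markers, the genes of the gate, the 15 of highest and of lowest ratio that lay on 1 side in all 6 runs, genes of prepared lists past 1.5-fold, and genes of the lists for IL-10 signaling and for regulators of *Il10*. Some genes of the lists are not reported here. The macrophages' rule and the lists were chosen with earlier results of these data known. The split by *Folr2*, *Cd163*, and *Cbr2*, the promoter search, and the genes given beyond the rule to show the other groups were chosen after their values were seen. Alternatives are described in the closing section. RefSeq promoter windows (GRCm38.p6) were used for the NF-kB search, without chromosome 18.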

Additional observations from a re-analysis of the deposited data

How the results depend on the processing

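With 1 pooled matrix, no value carries a spread between animals, and cells are not replicates. Depth limits what a cell without an *Il10* UMI means, and few cells hold many of the UMIs of genes such as *Ccl24*. No paired analysis was possible because the barcodes carry no sample or replicate number.

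The share of gated macrophages with *Il10* was 18.2% when thinned to 5000 UMIs and 24.2% in cells with at least 5000 UMIs, and 17.9% to 23.9% when each barcode run was left out in turn. Without run 1, which had the highest share, it was 17.9%. The 251 higher genes became 413 with at least 2 *Il10* UMIs, 426 at 3 CPM, 165 at 30 CPM, and 79 at 2-fold, and ranged from 232 to 286 without each run in turn. The 165 lower genes became 303 without matching, 383 with at least 2 *Il10* UMIs, 302 as a mean over cells, 520 at 3 CPM, 43 at 30 CPM, and 19 at 2-fold, and ranged from 166 to 223 without each run. The cutoff on levels and fold sets these counts by construction.

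The *Gdf15* ratio of 3.68 became 4.29 without matching, 4.02 with at least 2 *Il10* UMIs, 2.74 in cells with *Mrc1*, 4.23 without cells carrying markers of other types, 4.26 without cells of high mitochondrial percent or UMIs, and 3.40 as a mean over cells. It ranged from 3.34 to 4.47 without each run. *Cd93* became 2.51 without matching, 2.41 with at least 2 *Il10* UMIs, and 1.93 in cells with *Mrc1* (2.03 to 2.23 without each run). *Aoah* became 1.85 in cells with *Mrc1* (2.08 to 2.57 without each run). In alternatives chosen after seeing the data, *Gdf15* was at 2.94 and *Aoah* at 1.63 in cells without *Folr2*, *Cd163*, or *Cbr2*, and *Gdf15* at 4.31 in cells with at least 10000 UMIs and at 3.33 in cells without *Cd209a*, *Ccr7*, *Flt3*, or *Klrd1*. The cause of these moves was not tested.

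Over the 17 alternatives of the matched comparison, 1 of 504 values of the 30 named genes changed side, *Ednrb* at 0.971 without *Folr2*, *Cd163*, or *Cbr2*, and 127 moved on the same side. These genes were chosen for extreme ratios on 1 side in all 6 runs. The 6 alternatives that left out a run could therefore hardly change their side. *Ccl24* (3.79) was at 2.23 without run 2, at 1.28 without *Folr2*, *Cd163*, or *Cbr2*, and at 1.14 without *Cd209a*, *Ccr7*, *Flt3*, or *Klrd1*. *Ednrb* (4.21) was at 6.50 without run 1. *Klrd1* (0.205) was at 0.109 without run 2 and 0.321 without run 3. *Rcn3* (4.57) was at 1.17 without *Folr2*, *Cd163*, or *Cbr2*, and *Ccl8* at 3.18 in cells with *Mrc1*. In the CD4/CD8-selected matrix, 70.0% of the 30 named genes kept their side (13 of the 15 higher and 8 of the 15 lower). This share was 63.3% without matching and 73.3% without cells carrying markers of other types.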

Other observations

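Genes of stress responses stood on both sides of 1. Of 8 integrated stress response genes compared, *Cebpb* was higher (1757 against 1141 CPM, 1.54-fold, CI 1.505 to 1.58) and *Sesn2* (ratio 0.626) and *Psat1* (0.658) were lower, with *Atf4* at 1.09 and *Ddit3* at 0.858. Of 8 p53 target genes, *Plk2* was higher (1.79-fold) and *Bbc3* was lower (ratio 0.585), with *Cdkn1a* at 1.44 and *Mdm2* at 1.34. *Gdf15*, which both pathways are known to induce, was at 3.68, and whether either pathway set its level was not tested. Of the 4 cell cycle genes compared, none passed 1.5-fold, in cells chosen for having no *Mki67*.

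Genes of alternative activation were on both sides. *Clec10a* (171 against 84.3 CPM, 2.03-fold, CI 1.87 to 2.21) and *Mrc1* were higher, *Arg1* (ratio 0.603) and *Ear2* (0.574) were lower, and *Retnla*, *Mgl2*, and *Il4ra* did not pass 1.5-fold. Of 4 monocyte markers compared, *Plac8* was lower (ratio 0.616, lower in 5 of 6 runs), while *Ccr2* stood at 398 against 279 CPM (1.43-fold, CI 1.36 to 1.497) and *Ly6c2* at 23.6 against 28.1 CPM.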
